A study of Solanum lycopersicum with 15 samples.

Results

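The comparison described here is that of tomato (Solanum lycopersicum) roots given iron together with nitrate against roots given iron alone, 3 libraries on each side and 6 of the 15 libraries of the study. The libraries were chosen by their labels, +Fe+Ni for iron with nitrate and +Fe-N for iron without nitrogen, and not by any measured value. The other 9 libraries came from control roots with neither iron nor nitrogen (-Fe-N), from roots given iron and ammonium (+Fe+A) and from roots given iron and urea (+Fe+U), with 3 of each. The labels describe the added nutrients as a resupply, and all 5 regimes were root tissue of the same species. Cultivar, plant age, nutrient doses and the length of the treatment are not given in the sources used here, nor whether replicates were separate plants or cultures, so the p-values set each difference against a spread between libraries that may be technical.

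Nitrate is both a nitrogen source and a signal for roots. It enters through membrane transporters, is reduced to nitrite by nitrate reductase in the cytosol and to ammonium by nitrite reductase in plastids, and the ammonium is built into glutamine and glutamate. Both reductases carry iron in their cofactors, and tomato, like other plants outside the grasses, acidifies the soil and reduces ferric iron at the root surface before taking it up, so supply of nitrate and supply of iron meet in the same tissue. The deposited table pairs no identifier with a gene name, and the annotation table at hand matched 0 of the identifiers. Genes are therefore given by identifier with no role, chromosomes are those written in the identifiers, and transporters, reductases and iron-uptake genes could not be picked out, nor could markers of root cell types or of green tissue. No gene sequence was used here.

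Expression was given as FPKM, fragments per kilobase of transcript, relative to the mapped fragments of the library. The 18889 genes tested were those with at least 1 FPKM in at least 3 of the 15 libraries, 55.4% of 34075. The absolute depth is unknown. Steps between low values put the relative depth at 0.936 to 1.28 for iron alone and at 0.877 to 0.998 for nitrate. The highest estimate of the 15 libraries was that of iron-alone replicate 1. These estimates are approximate and do not settle which library was deepest. FPKM summed to 551746 to 587391 per iron-alone library and to 562136 to 569455 per nitrate library. The median SD between replicates on the log2 scale was 0.169 for iron alone, the largest of the 5 regimes, and 0.159 for nitrate.

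Nitrate added to iron changed 2204 genes, which is 11.7% of those tested (limma, adjusted p under 0.05). Of these, 866 rose (4.58% of tested genes), among them 268 (1.42%) by at least 2-fold. The other 1338 fell (7.08%), among them 221 (1.17%) by at least 2-fold. In bulk tissue, fewer cells of a type and less RNA per cell cannot be told apart, which holds for each change given here. Rising genes thus made up 39.3% of the calls with FPKM as deposited, and 51.5% with size factors and 50.4% after quantile normalization, so neither direction was the more frequent one under every scaling. The median tested gene moved by -0.05 on the log2 scale. Without nitrate replicate 3 the number of calls was 1225, and with only the 6 libraries fitted it was 1192.

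The 4 genes described next were taken by rule. They had the smallest p in each direction among calls of at least 2-fold in which the higher group averaged 5 FPKM or more and the groups did not overlap. A total of 245 rising and 182 falling genes met those conditions. The further tests given for the 4 genes reuse the nitrate or iron-alone libraries on which the genes were picked, so they are not independent of that choice.

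Solyc10g050890.ITAG4.0 on chromosome 10 was measured at 52.7, 39.3 and 55.3 FPKM in roots given iron alone and at 502, 439 and 617 FPKM in roots given iron and nitrate. Every nitrate library was above every iron-alone library, and the group means were 49.1 ± 8.61 and 519 ± 90.1 FPKM (SD, n = 3). The log2 difference was 3.38 with a standard error of 0.17 (limma adjusted p = 2.3e-07), a 10.4-fold rise on the log2(FPKM + 1) scale. Ammonium libraries held 113, 99.96 and 148 FPKM, urea libraries 36.6, 41.7 and 39.2 FPKM and control libraries 68.3, 90.1 and 69.2 FPKM. Nitrate was above each of these regimes by its own test, with log2 differences of 2.11 against ammonium (adjusted p = 7.6e-06), 3.68 against urea (3.7e-08) and 2.76 against control (5.4e-07).

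Solyc02g080640.ITAG4.0 on chromosome 2 was present in every regime and rose by a smaller factor. Its levels were 71.5, 78.5 and 83.7 FPKM with iron alone, where it was lowest of all regimes, and 286, 282 and 353 FPKM with nitrate. The means were 77.9 ± 6.10 and 307 ± 40.3 FPKM (SD, n = 3), a log2 difference of 1.96 with a standard error of 0.098 (limma adjusted p = 2.3e-07). In control roots it stood at 122, 130 and 122 FPKM, so that iron alone lay below control (log2 difference -0.68, adjusted p = 0.0019) and nitrate above it (1.28, adjusted p = 2.9e-06). Ammonium and urea libraries, at 169 to 203 and 143 to 157 FPKM, lay between iron alone and nitrate, and nitrate exceeded them by 0.70 and 1.00 on the log2 scale (adjusted p = 0.00059 and 9.2e-06).

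Solyc08g065610.ITAG4.0 on chromosome 8 fell from 187, 191 and 194 FPKM with iron alone to 69.95, 62.7 and 62.7 FPKM with nitrate. The means of 190.4 ± 3.29 and 65.1 ± 4.2 FPKM (SD, n = 3) differed by -1.54 on the log2 scale, with a standard error of 0.089 (limma adjusted p = 4.1e-07). This gene was low with each nitrogen form, at 83.8 to 96.8 FPKM with ammonium and 78.3 to 92.3 FPKM with urea, and high in the regimes without nitrogen. Its level with nitrate was still below that with ammonium (log2 difference -0.47, adjusted p = 0.0048) and urea (-0.38, adjusted p = 0.0077). Control libraries, at 165 to 203 FPKM, overlapped iron alone, and no difference between those regimes passed the test (log2 difference 0.08 with a standard error of 0.089, adjusted p = 0.66).

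Solyc08g075570.ITAG4.0, also on chromosome 8, showed a different order of regimes. It fell from 47.7, 44.1 and 57.7 FPKM with iron alone to 17.0, 15.7 and 18.9 FPKM with nitrate, with means of 49.9 ± 7.06 and 17.2 ± 1.6 FPKM (SD, n = 3; log2 difference -1.48, standard error 0.10, limma adjusted p = 1e-06). Ammonium libraries (49.2 to 56.5 FPKM) and urea libraries (39.2 to 44.6 FPKM) overlapped iron alone, and control libraries were highest at 73.8 to 81.2 FPKM. Nitrate was lower than ammonium by a log2 difference of -1.56 (adjusted p = 1.1e-06), than urea by -1.27 (1.7e-06) and than control by -2.09 (8.4e-08).

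**Figure D1:**
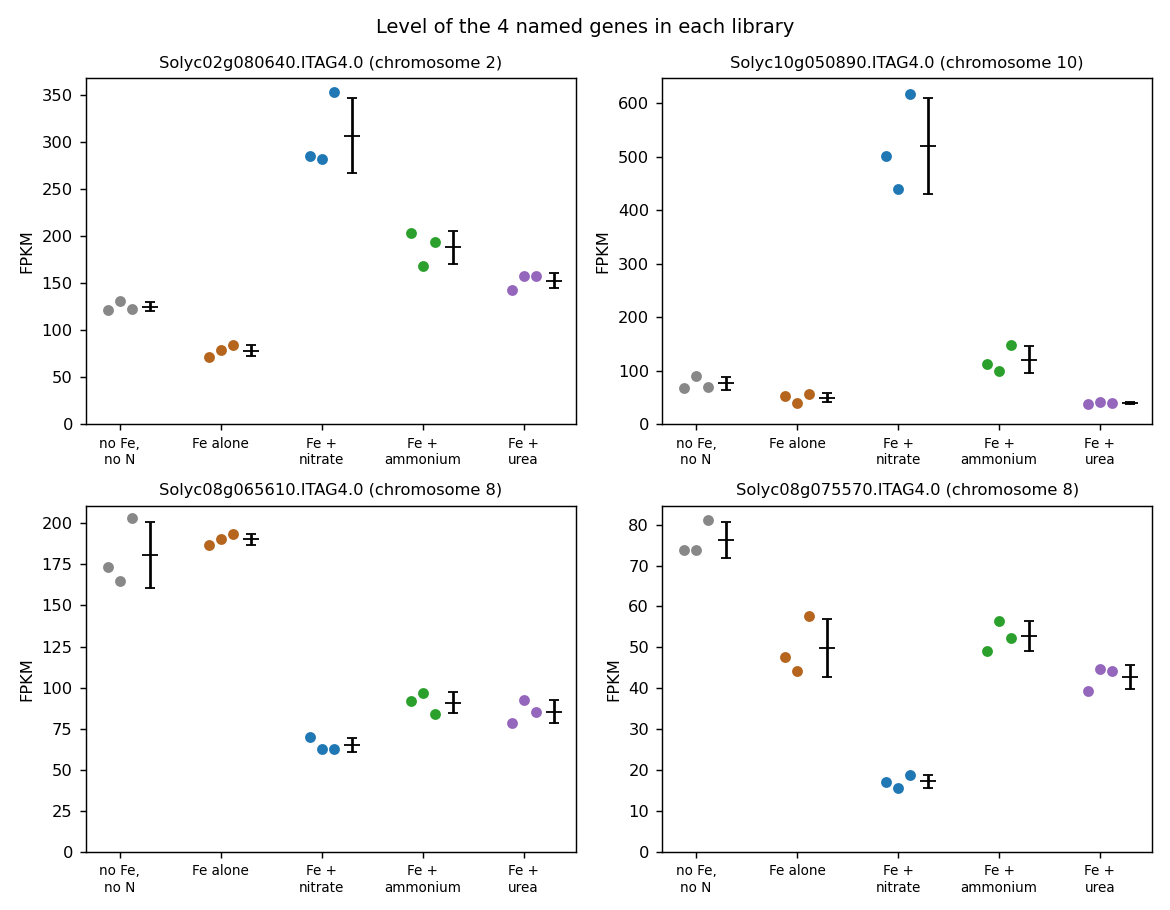
FPKM of the 4 genes taken by rule, with 1 point per library, 5 nutrient regimes along the horizontal axis, and the mean with SD of 3 libraries as a black bar beside the points. The nitrate libraries lie above or below all 12 others in each panel, at 439 to 617 FPKM for Solyc10g050890.ITAG4.0 and at 15.7 to 18.9 FPKM for Solyc08g075570.ITAG4.0.

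Rises of 4-fold or more outnumbered falls of that size, at 74 genes against 10. Rises remained the more numerous in each of the 15 alternatives, with 58 to 91 rising and 7 to 37 falling. The 37 falling genes, beside 91 rising, came with a pseudocount of 0.1, which compresses changes of low genes less than a pseudocount of 1. Genes that fell by 4-fold or more numbered 16 without iron-alone replicate 1 and 17 without nitrate replicate 1. At 2-fold or more the order was not stable. The main fit had 268 rises and 221 falls, but a pseudocount of 0.1 gave 303 and 318. Without nitrate replicate 1 the counts were 288 and 295, and without iron-alone replicate 2 they were 217 and 218. The median log2 change was 0.69 among the rising genes, with quartiles of 0.45 and 1.11, and -0.63 among the falling ones, with quartiles of -0.87 and -0.44. Of the rising genes 348, and of the falling genes 602, changed by less than 1.5-fold.

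**Figure D2:**
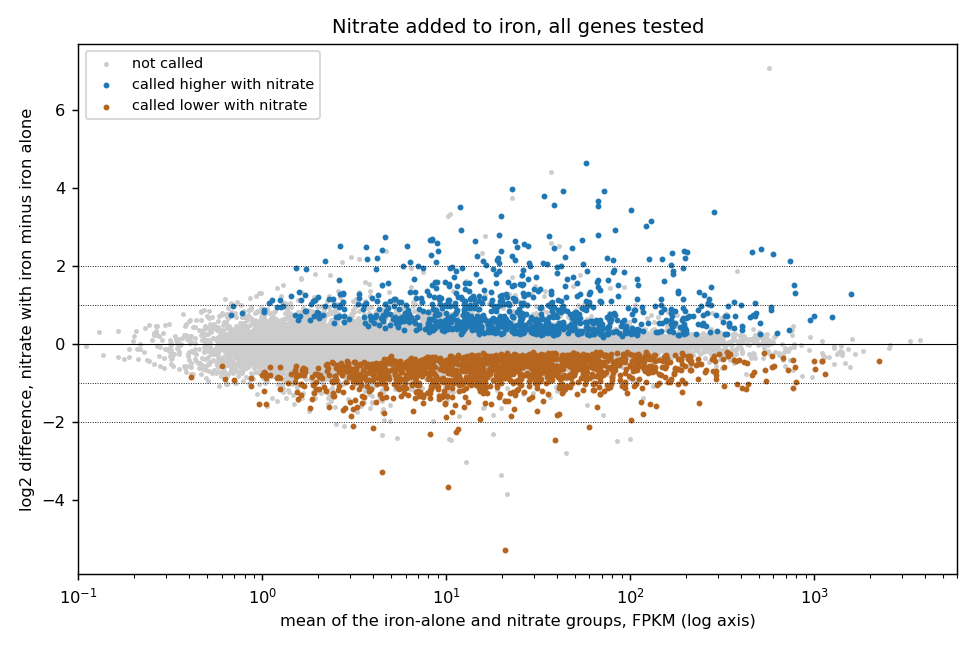
Log2 difference between nitrate with iron and iron alone for all 18889 genes tested (vertical axis, on the log2(FPKM + 1) scale) against the mean of both groups in FPKM (log axis). Blue points rose, brown points fell and grey points were not called; dotted lines mark 2-fold and 4-fold, and 74 blue and 10 brown points lie at or beyond 4-fold.

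The groups did not overlap in 858 of the 866 rising genes (99.1%) and 1321 of the 1338 falling genes (98.7%). Over all tested genes, called or not, the nitrate libraries lay wholly above iron alone in 10.7% and wholly below it in 17.5%. Another 26 genes differed by 4-fold or more between the group means of log2 values without being called, 13 in each direction, and in 23 of these at least 1 of the 6 libraries was listed at 0. The largest difference of all belonged to such a gene, Solyc02g088130.1.ITAG4.0, singled out after its values were seen. It was listed at 0, 2373 and 1042 FPKM with nitrate and at 0 in the 3 iron-alone libraries (limma adjusted p = 0.15), and it also stood at 428 FPKM in 1 control library and 469 FPKM in 1 ammonium library. An exact 0 in such a table can be a failed estimate, and the difference did not pass the test. Called genes can hold such values as well. The largest called fall, Solyc01g056320.1.ITAG4.0, averaged 41.9 FPKM with iron alone and 0 with nitrate (log2 difference -5.29, limma adjusted p = 0.0125). It is 1 of the 10 genes that fell by 4-fold or more and was also singled out after its values were seen.

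Calls were more frequent among highly expressed genes. Below a mean of 2 FPKM over the 15 libraries, 1.16% of genes rose and 1.91% fell. The shares grew with each step in level to 11.4% and 14.6% at 100 FPKM or more, where 122 of 1073 genes rose and 157 fell. Genes changed by at least 2-fold were spread more evenly. Their shares ran from 0.565% rising and 0.706% falling under 2 FPKM to 2.8% and 1.86% at 100 FPKM or more. A pseudocount of 1 shrinks the differences of low genes, and its part in this gradient was not tested.

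**Figure D3:**
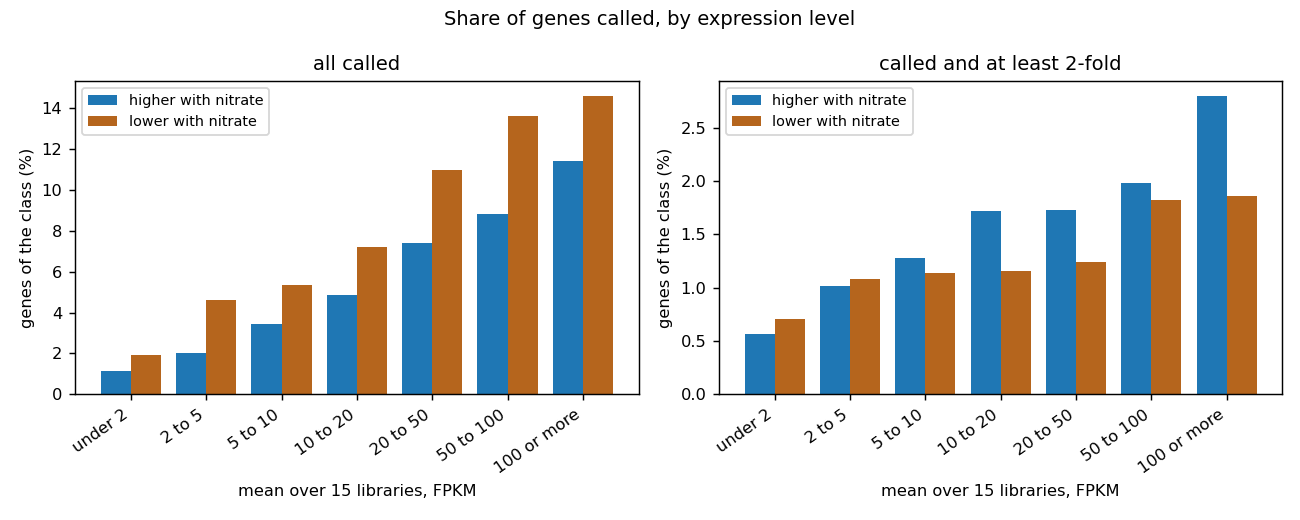
Percent of tested genes in each class of mean FPKM over 15 libraries that rose (blue) or fell (brown) with nitrate, for all calls on the left and for calls of at least 2-fold on the right. The left bars climb from 1.16% and 1.91% to 11.4% and 14.6%, while the right bars stay between 0.565% and 2.8%.

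As a share of summed FPKM, a length-corrected quantity, the rising genes together held 6.99%, 6.85% and 7.04% in the iron-alone libraries and 12.6%, 12.2% and 13.9% in the nitrate libraries. The falling genes went from 14.5%, 15.3% and 14.5% to 10.2%, 10.0% and 8.95%. Nitrate replicate 3 held the highest share for the one set and the lowest for the other. For the same rising genes the share was 8.51% to 9.01% in control roots, 9.45% to 10.7% with ammonium and 7.77% to 8.46% with urea. The falling genes held 12.9% to 13.5%, 11.0% to 12.6% and 12.8% to 13.5% in those regimes. These genes were called on the iron-alone and nitrate libraries, which fixes the order of those groups. That choice can also shift where the other regimes lie relative to them. Its share was not tested, and the values are a description.

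The place of the urea libraries differed between strongly rising and strongly falling genes, while ammonium and control lay on the nitrate side of iron alone in both. For the 268 genes that rose by at least 2-fold, the median level relative to the iron-alone mean, on the log2 scale, was 1.38, 1.35 and 1.68 in the nitrate libraries. It was 0.48 to 0.77 in the ammonium libraries, 0.39 to 0.51 in control roots and -0.09 to 0.05 in the urea libraries, which thus lay at the level of iron alone. For the 221 genes that fell by at least 2-fold the medians were -1.05, -1.18 and -1.44 with nitrate, -0.97 to -0.66 with ammonium, -0.69 to -0.66 with urea and -0.51 to -0.39 in control roots. Every library outside iron alone therefore lay below iron alone for the falling genes. Over all tested genes the same medians lay between -0.11 and 0.04. The choice of genes on the iron-alone libraries pushes the other regimes to the same side, and its share in these medians was not tested.

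**Figure D4:**
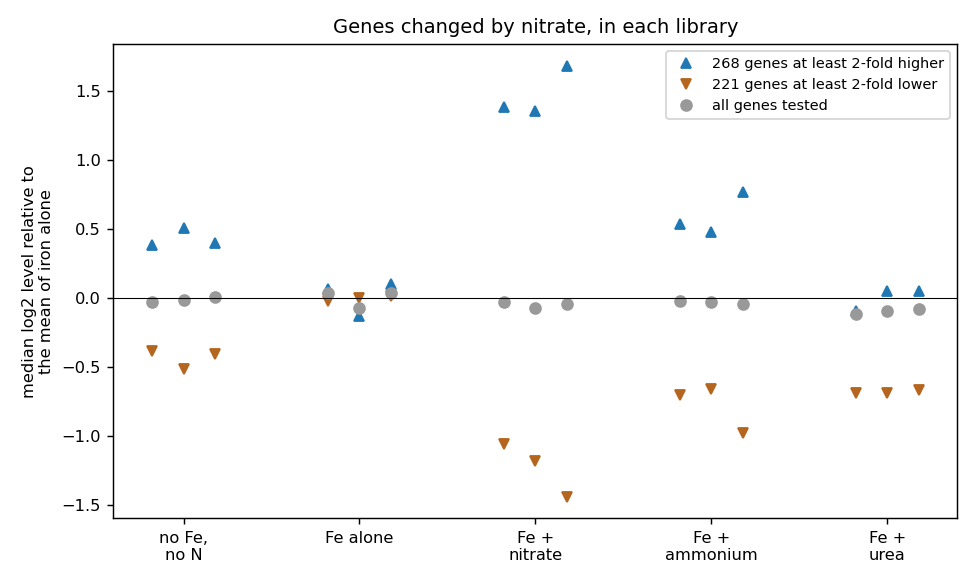
Median log2 level of 3 gene sets in each library, relative to the mean of the iron-alone libraries, with 3 points per regime along the horizontal axis. Upward triangles are the 268 genes at least 2-fold higher with nitrate, downward triangles the 221 genes at least 2-fold lower, and grey circles all genes tested; the urea libraries sit at -0.09 to 0.05 for the first set and at -0.69 to -0.66 for the second.

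Counts of which group stood apart from the whole study are given by direction. In 175 of the 268 strongly rising genes (65.3%) the 3 nitrate libraries were above all 12 others, and in 32 (11.9%) the 3 iron-alone libraries were below all 12 others, with 15 genes in both counts. Among the 221 strongly falling genes the nitrate libraries were below all others in 54 (24.4%), and the iron-alone libraries were above all others in 65 (29.4%), with 2 genes in both. Over all tested genes these shares were 2.06% and 0.725% in the rising direction and 2.2% and 2.41% in the falling one. Of the 2021 genes with nitrate above iron alone without overlap, whether called or not, nitrate was highest of all in 19.3%, and of the 3301 genes with nitrate below iron alone it was lowest of all in 12.6%. In the same sets, iron alone was lowest of all in 6.78% and highest of all in 13.8%. Neither group stood beyond the 12 other libraries in 28.4% of the strong rises and in 47.1% of the strong falls, which made this the largest class among the falls. The difference between the directions is given as counts only, without a test.

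Ammonium with iron against control, and urea with iron against control, share no library with the comparison of nitrate and iron alone, although all libraries share the estimate of spread and the controls also lacked iron. Of the 866 genes that rose with nitrate, 332 (38.3%) were higher with ammonium and iron than in control, against 9.89% of all tested genes, and 84 (9.7%) were lower, against 10.9%. Of the 1338 genes that fell, 410 (30.6%) were lower and 111 (8.3%) were higher with ammonium and iron. Seen from the other list, the 332 genes are 17.8% of those higher with ammonium and iron, and the 410 genes are 19.8% of those lower. Called genes were expressed above the level of the average gene, at medians of 22.9 FPKM for rising and 20.5 FPKM for falling genes against 9.48 FPKM for all tested genes. The part of expression level in these shares was not tested.

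The counts for urea differed from those for ammonium among the rising genes. Both sets of counts use the same control libraries, and ammonium and urea were not tested against each other. Of the 866, 209 (24.1%) were higher and 250 (28.9%) lower with urea and iron than in control, against 9.74% and 17.6% of all tested genes. Among the 268 strong rises, 30 (11.2%) were higher and 99 (36.9%) lower with urea and iron, with a median log2 difference of -0.42. With ammonium and iron, 66 (24.6%) of the same 268 were higher than in control and 30 (11.2%) lower, with a median of 0.16. The falling genes were lower with urea and iron in 456 of 1338 (34.1%) and higher in 193 (14.4%). Across the 18889 genes the log2 differences of nitrate against iron alone correlated at r = 0.179 with those of ammonium and iron against control and at r = -0.04 with those of urea and iron against control. Genes are not independent replicates, and both coefficients only describe these tables.

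The called genes were spread over all 12 chromosomes. The share that rose was lowest on chromosome 11, at 3.5% of its 1258 tested genes, and highest on chromosome 5, at 5.81% of 1257. The share that fell was lowest on chromosome 11 as well, at 4.69%, and highest on chromosome 9, at 8.25% of 1357.

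Genes next to each other in identifier order, counting tested genes, changed the same way more often than the share of all tested genes that changed, as a count without a test. A rising gene was followed by another rising gene in 10.4% of 864 cases, against 4.58% of all tested genes, and a falling gene by another falling gene in 11.5% of 1338 cases, against 7.08%. In all, 90 neighbouring pairs rose together, 154 fell together and 98 moved in opposite directions. Runs of at least 3 neighbours numbered 10 among rising and 20 among falling genes. Neighbours that share reads as near-identical copies would be counted together here, and the sequences were not examined.

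The longest run, singled out after its values were seen, held 10 consecutive tested genes on chromosome 7, from Solyc07g008980.ITAG4.0 to Solyc07g009100.ITAG4.0. All 10 rose with nitrate, by 0.46 to 1.07 on the log2 scale (limma adjusted p from 0.00022 to 0.018), with no overlap between groups in any of them. The next longest runs held 5 and 4 genes. Another 3 genes listed within this stretch were too low to be tested. The genes of the run were all abundant: their FPKM summed to 3077, 2621 and 3003 in the iron-alone libraries and to 4979, 4458 and 5325 in the nitrate libraries, or 0.475% to 0.524% and 0.788% to 0.947% of all FPKM.

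Control roots had the highest sums over the run, at 5989 ± 361.5 FPKM (SD, n = 3), and iron alone the lowest, at 2900 ± 245 FPKM. Nitrate stood at 4921 ± 436.5, ammonium at 4148 ± 405 and urea at 4184 ± 559 FPKM (SD, n = 3 each), so that every library given nitrogen lay above every iron-alone library and below every control library. All 10 genes were lower with iron alone than in control by the test (log2 differences of -1.90 to -0.54, limma adjusted p from 0.00026 to 0.013), a comparison that shares the iron-alone libraries. With nitrate, 3 of the 10 were still lower than in control, and 2 of the 10 were higher than with ammonium. Between nitrate and urea, 0 of the 10 were called in either direction (limma adjusted p from 0.067 to 0.62). The first gene of the run, Solyc07g008980.ITAG4.0, showed the widest span as a ratio of highest to lowest library, with 130, 109 and 160 FPKM for iron alone, 229, 212 and 314 FPKM for nitrate and 415 to 578 FPKM in control roots. The last, Solyc07g009100.ITAG4.0, had the largest log2 difference between nitrate and iron alone, 1.07, from 253, 231 and 224 to 502, 439 and 549 FPKM. Between 8 and 10 of the genes were called in each of the 15 alternatives, with a largest adjusted p of 0.075. Neighbouring genes can be near-identical copies that share reads; the sequences were not examined here, so how far these are 10 separate measurements is uncertain.

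**Figure D5:**
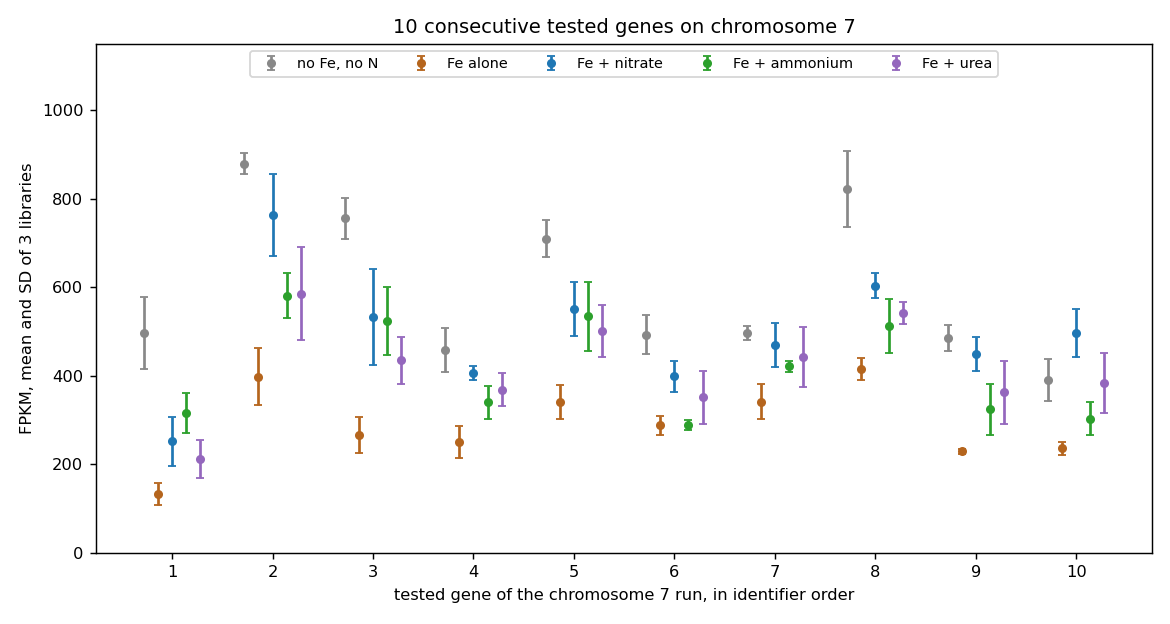
FPKM of the 10 consecutive tested genes on chromosome 7 in identifier order, as mean and SD of 3 libraries in each of 5 regimes. Iron alone (brown) has the lowest mean in each gene, with ammonium beside it in the sixth, and nitrate (blue) lies above iron alone in each gene.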

How the data were processed

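Polyadenylated root RNA was sequenced, with 3 libraries in each of 5 regimes. The authors deposited FPKM for each gene, 1 column per library, mapped to regimes by library name and title. The aligner was HISAT2 per the submitters' processing notes; its version, the genome build and the FPKM tool are not given in the sources used here. FPKM corrects for depth and transcript length, not for RNA composition, and is not a count, so no count test was run.

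Genes with at least 1 FPKM in 3 or more libraries were transformed as log2(FPKM + 1), which understates changes of low genes. The linear model in limma 3.58.1 (R 4.3.3, trended variance) gave each regime its own mean and used all 15 libraries. Adjusted p-values are two-sided and Benjamini-Hochberg adjusted over the 18889 genes; genes were called under 0.05, and "rose", "fell" and "changed" mean called. The fit was tested on simulated data. Named genes are the pair with the smallest p in each direction among calls of at least 2-fold, at least 5 FPKM in 1 group and without overlap. The comparison, rule and alternatives were chosen with earlier results of these data known. The gene lists planned by product name could not be matched to identifiers and were not used. Relative depth came from the ratio of low values in genes present in few libraries, and 86 of 105 pairs of libraries came within 0.05 (log2) of the fitted depths; the largest departure was 1 log2 unit, so these depths are approximate. No pair of libraries was identical.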

Additional observations from a re-analysis of the deposited data

How the results depend on the processing

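The number of genes called was within 1.5 times the reported value in all alternatives but these. With only the 6 libraries compared it was 1192, with 509 rising and 683 falling. Leaving out 1 library at a time gave 1225 to 2082 calls, 547 to 783 rising and 678 to 1315 falling, with 210 to 305 rising and 144 to 295 falling by at least 2-fold. For all calls, rising, falling, 2-fold rising and 2-fold falling genes the lowest came without nitrate replicate 3 (1225, 547, 678, 210 and 144). Without iron-alone replicate 1 the falling genes numbered 872. The cause was not tested. Deviations from the group means correlated at -0.11, 0.12 and 0.12 for replicates 1, 2 and 3 of iron alone and nitrate. Iron-alone replicate 1 correlated best with nitrate replicate 2. Deviations within groups of 3 constrain one another, so these values cannot settle whether the replicate numbers pair the libraries. With the replicate number as a block 2213 genes were called, of which 2008 were also called, in the same direction, without it. The 4 genes taken by rule kept their calls in all 15 alternatives, with adjusted p of at most 0.0015. The share of rising genes that were higher with ammonium and iron than in control was 31.2% to 43.6%, and the strong rises with nitrate above all other libraries numbered 150 to 220, in the 14 alternatives that keep all regimes. The 4-fold counts, the chromosome 7 run and these values were put through the alternatives after the data had been seen. No counting interval can be given, since the absolute depth is unknown.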
